A study of Mus musculus with 4 samples.

Results

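The Wnt ligands, their receptors and the secreted proteins that raise or lower Wnt activity were followed in mouse articular cartilage as a family of 55 genes. The genes were taken by symbol from a list that uses no measured value: 19 ligands (Wnt), 19 receptors (Fzd, Lrp, Ror, Ryk and Lgr), 4 agonists (Rspo) and 13 inhibitors (Sfrp, Frzb, Dkk, Wif1, Notum, Sost and Sostdc1). All 55 were found among the 50488 gene identifiers shared by the 4 count tables.

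Poly-A RNA of hip and knee cartilage was sequenced as 4 libraries, with 1 library per group, to ask which genes differ when Cbfb, the non-DNA-binding partner of the Runx transcription factors, is deleted after birth. The hip control is labelled as from Cbfb f/f mice, with no Cre in the genotype and no treatment, and the other hip library from tamoxifen (TMX) injected Cbfb f/f;Col2a1-CreERT mice. Both knee libraries came from Cbfb f/f;Aggrecan-CreERT mice, injected with oil as the control or with TMX. By these labels the floxed Cbfb alleles were common to all 4 groups, and the hip pair also differed in Cre and TMX. The paper's results text calls the hip controls wild type, and its legends call them Cbfb f/f. Its methods say that Cbfb f/f mice were given TMX or corn oil. The mice were male. The hip mice are described as 6 weeks old in one place and as 2 months old in another, after TMX at 2 weeks, and the knee mice as 12 weeks old, after TMX at 8 or at 6 weeks. Both Cre lines act in chondrocytes, the cells that make Col2a1 and aggrecan, so cells of a dissected joint in which neither promoter is active keep Cbfb. A general statement of 5 mice per group does not say how many animals went into a library. In bulk RNA, fewer cells of a type and less RNA per cell cannot be told apart.

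Each library held 34264456 to 38473120 counts on genes. Cbfb itself had 2548 counts in the hip control and 2946 in the hip library labelled Cbfb-deficient, and 3796 and 4572 counts in the knee control and its partner, with log2 ratios of 0.41 and -0.07. Both signs turned, to -0.21 and 0.09, when the trends with length and GC content were removed. Whole-gene counts do not show whether an exon was removed, so the libraries are called here by their label, as deficient-labelled. Chondrocyte markers made up 0.026% of the hip control counts and skeletal muscle markers 19.1%, against 0.641% and 1.44% in the knee control. Col2a1 had 354 and 228 counts in the hip pair and 87367 and 33204 in the knee pair. The hip libraries are thus labelled cartilage but held far more muscle than cartilage RNA by these markers. Cre line, age, type of control and the program used for counting also differed between the joints, so ratios were taken within a joint. Over all hip genes the log2 ratio ran with GC content (Spearman's rho -0.376, n = 19585 genes, which share the 2 libraries), as it did over the 48 hip members that passed the filter (-0.276). With exon length rho was 0.232 over all hip genes and 0.438 over those members, and in the knee 0.24 over all genes and -0.0863 over the members. So a detrended ratio, from which the run of all genes with length and GC content was subtracted, is given beside each member whose call it changes.

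Wnt proteins are lipid-modified signals that bind Frizzled receptors together with the coreceptors Lrp5 or Lrp6, which leads to stabilization of beta-catenin, or act through Ror and Ryk receptors on cell shape and polarity. R-spondins bind Lgr receptors and keep Frizzled and Lrp proteins at the cell surface, whereas the Sfrp, Frzb and Wif1 proteins capture Wnts outside the cell and Dkk1 and Sost block Lrp5 and Lrp6. In joints, Wnt4, Wnt9a and Wnt16 mark the sites where a joint forms, and too much or too little Wnt activity is known to damage adult cartilage.

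In the hip pair, more of the family was lower than higher in the deficient-labelled library, and the largest single loss by counts was that of the receptor Fzd9. In the knee pair the picture split by role: ligands were mostly lower, and Frizzled receptors and several inhibitors, Frzb foremost, were higher. A gene was called changed when its 95% counting interval left out 0 and its log2 ratio reached 1 in either direction, provided that the 2 libraries of the joint together held at least 10 of its counts. With 1 library per group there was no replicate error and no p-value, and the intervals covered counting error only. In the hip, 48 of the 55 members reached 10 counts and 20 were changed, or 41.7%, beside 36.5% of all 19856 genes that passed the filter. Of these, 5 were higher (10.4%, beside 20.2% of all genes) and 15 were lower (31.2%, beside 16.3%). In the knee, 48 members passed and 23 were changed, or 47.9%, beside 15.8% of 21131 genes. Here 14 were higher (29.2%, beside 9.00%) and 9 were lower (18.8%, beside 6.81%). The median log2 ratio of the members was -0.56 for the hip pair and 0.37 for the knee pair, beside 0.01 and 0.02 over all genes. Beyond counting error, 37.3% of all hip genes were above 0 and 33.7% below. For all knee genes these shares were 31.9% and 29.7%. The 7 hip members under the filter (Wnt3a, Wnt7a, Wnt8a, Wnt9b, Fzd3, Rspo4 and Dkk4) had 0 to 8 counts per library, and the 7 of the knee (Wnt3, Wnt3a, Wnt7a, Wnt8a, Wnt8b, Wnt9b and Dkk4) had 0 to 6. With upper-quartile scaling, which shifted every ratio by -0.345 in the hip and by -0.116 in the knee, the split was 3 higher (6.25%, beside 14.0% of all genes under that scaling) and 19 lower (39.6%, beside 24.0%) in the hip and 7 higher (14.6%, beside 7.30%) and 9 lower (18.8%, beside 8.40%) in the knee. Detrended, it was 3 higher (6.25%, beside 13.8%) and 12 lower (25.0%, beside 15.8%) in the hip and 9 higher (18.8%, beside 9.48%) and 9 lower (18.8%, beside 5.19%) in the knee. Under upper-quartile scaling, in the hip Fzd5 and Lgr4 lost their calls and Wnt16, Sfrp1, Sfrp2 and Sost gained calls as lower, and in the knee Wnt2b, Wnt9a, Fzd4, Fzd7, Fzd8, Fzd9 and Lrp5 lost theirs.

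**Figure D1:**
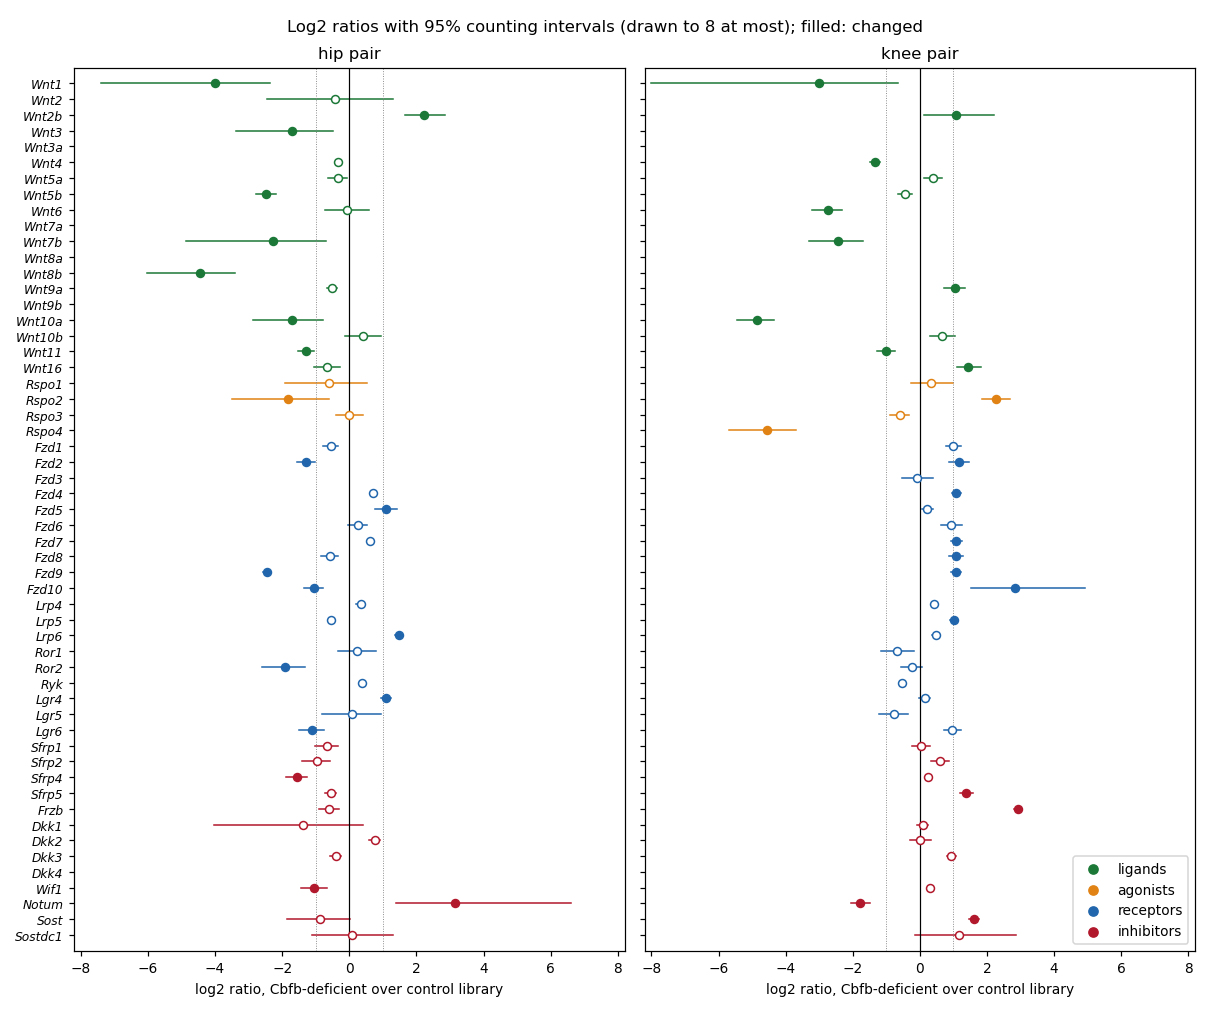
Log2 ratio of each member, deficient-labelled over control library, in the hip pair (left) and the knee pair (right), with bars for 95% counting intervals and filled points for changed genes. In the knee, 6 of the 10 Frizzled genes were changed and higher, and 7 of the 13 ligands that passed the filter were changed and lower, of which Wnt2 has no point because it had 0 counts in the deficient-labelled library.

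Ligand levels were first compared per length, as TPM, which scales counts by exon length and by the total of the library. In every library Wnt4, a ligand of joint and kidney development, had the highest TPM of the 19 ligands. Its level was 44.8 TPM in the hip control, or 41.2% of the ligand total, and 38.2 TPM in its partner. In the knee it was 16.7 TPM in the control and 8.39 TPM in the deficient-labelled library. Wnt9a, which acts in joint formation, came next in both hip libraries with 23.4 and 17.6 TPM, and in the deficient-labelled knee library with 6.49 TPM. In the knee control the next ligand was Wnt10a, known for its role in tooth and skin development, with 12.8 TPM or 22.3% of the ligand total. Wnt8a had 0 counts in each of the 4 libraries, so the counts allow up to 3 counts per library, or 0.078 to 0.0876 CPM (counts scaled to the library total).

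In the hip, 15 ligands passed the filter, of which 1 was changed and higher and 7 were changed and lower. The changed share was 53.3%, beside 36.5% of all genes, and the median of these 15 was -0.66, or -1.24 when detrended. Wnt8b, a ligand known from forebrain development (chromosome 19 of GRCm39, 44481907 to 44502712), had 162 counts in the control and 6 in the deficient-labelled library, a log2 ratio of -4.45 (counting interval -6.02 to -3.40). Wnt5b, a ligand of chondrocyte maturation that acts mainly without beta-catenin, had 720 and 113 counts and fell by 2.47 on the log2 scale. Wnt11, which acts on cell polarity, had 561 and 201 counts, with a log2 ratio of -1.28, or -0.86 and no call when detrended. These 3 were the best counted of the ligands that fell. Wnt5b shares 21.82% of its exon sequence with Fbxl14 on the opposite strand, whose counts were 611 and 614. The remaining ligands that fell were low. Wnt1, a bone-forming ligand, had 45 and 2 counts, Wnt10a 43 and 11, Wnt3 24 and 6, and Wnt7b 19 and 3, with log2 ratios from -3.99 to -1.72, the lowest being that of Wnt1, which was -3.28 when detrended. Wnt1 shares 20.56% of its exon sequence with Wnt10b on the opposite strand, which had 58 and 67 counts. Without stated strand use, reads of the shared bases cannot be told apart.

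Wnt2b, a canonical ligand that the study names, was the ligand that rose in the hip, from 31 to 128 counts, a log2 ratio of 2.23 (1.67 to 2.86). Wnt10b, which favours bone over fat formation, had 58 and 67 counts and a log2 ratio of 0.40, with an interval of -0.12 to 0.94 that included 0, while its detrended ratio was 0.69 (0.16 to 1.22). Wnt9b, a ligand of kidney tubule formation, had 1 and 5 counts in the hip and 4 in each knee library and stayed under the filter. Among the abundant ligands, Wnt4 had 2398 and 1642 counts (-0.35) and Wnt9a 969 and 586 counts (-0.53), both below 0 beyond counting error and short of a change, but the detrended ratio of Wnt9a was -0.07 with an interval of -0.22 to 0.08. Wnt16, a ligand of the developing joint and of cortical bone, had 154 and 85 counts (-0.66) and became a called fall when detrended, at -1.38.

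In the knee, 13 ligands passed the filter, and 3 were changed and higher and 7 changed and lower, or 76.9%, beside 15.8% of all genes. Their median was -1.003, but -0.46 when at least 10 counts were asked of each library. Wnt10a (chromosome 1, 74830675 to 74844355) had 672 counts in the control and 29 in the deficient-labelled library, 28.8-fold lower, with a log2 ratio of -4.85 (-5.46 to -4.34). Wnt6, an epithelial ligand whose gene lies just before Wnt10a on the same strand (74810922 to 74824975), had 276 and 52 counts and a log2 ratio of -2.74 (-3.20 to -2.32). Wnt7b, a ligand of lung, kidney and bone development, had 74 and 17 counts and a log2 ratio of -2.43. All 3 were low in the deficient-labelled knee library. Markers of keratinocytes, the cells of the skin surface, were mostly lower too: Krt14 had 262 and 37 counts and Krt5 89 and 16, but Trp63 had 22 and 65. The 7 markers together held only 0.00189% and 0.000683% of the counts. Of them 4 were below and 1 above 0 beyond counting error, with none at 0. Osteoclast markers were also lower, with 7 of 8 below and 0 above 0 beyond counting error, a median of -1.41 and 0.344% and 0.191% of the counts. Chondrocyte markers had 13 of 16 below and 3 above, a median of -1.70 and 0.641% and 0.315% of the counts. Markers of bone-forming cells had 8 of 13 below and 3 above, those of macrophages 5 of 8 and 3, and erythroid markers 7 of 9 and 2. Of all knee genes, 29.7% were below and 31.9% above. The part of these cells in the fall of the knee ligands was not tested.

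Wnt4 was the most abundant ligand to fall in the knee, with 1039 and 520 counts and a log2 ratio of -1.34 (-1.49 to -1.18). Wnt11 had 287 and 181 counts and a ratio of -1.003, at the border of the rule. Wnt1 had 9 counts and 1 count, and Wnt2 had 10 counts and 0, which is at least 4.22-fold lower against a floor of 3 counts. Wnt16 rose from 88 to 304 counts, or by 1.44 on the log2 scale (1.10 to 1.81). Wnt9a rose from 120 to 312 counts (1.04), and Wnt2b from 12 to 33 counts (1.08, interval 0.13 to 2.21). Wnt9a and Wnt2b had detrended ratios of 0.93 and 0.92 and were no longer called. Wnt10b had 99 and 199 counts in the knee and a ratio of 0.66 (0.31 to 1.03), above 0 beyond counting error and short of a change. Wnt5b had 389 and 359 counts (-0.46) and Wnt5a, its closest relative, 185 and 309 counts (0.40, or 0.18 and within counting error when detrended).

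**Figure D2:**
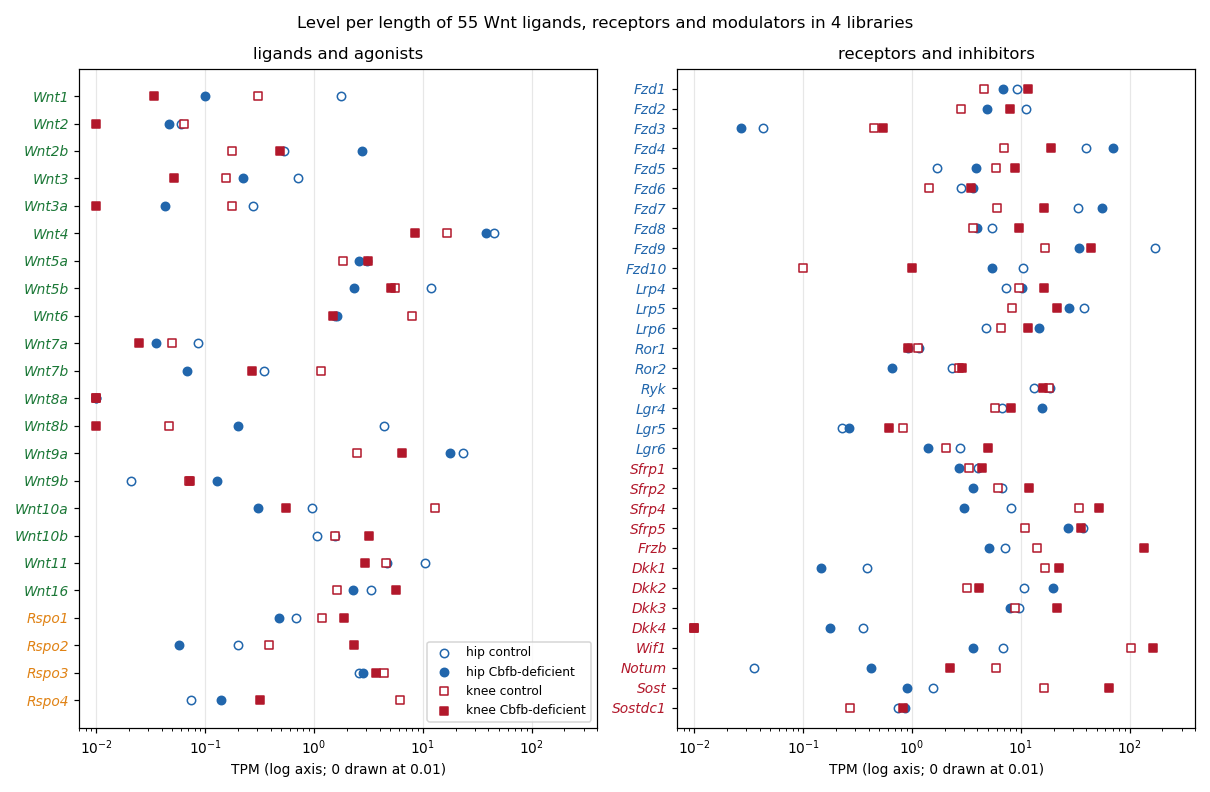
Level of each of the 55 members in TPM, on a log axis, in the 4 libraries, with hip libraries as blue circles, knee libraries as red squares and filled symbols for deficient-labelled libraries. Levels of 0 are drawn at 0.01. Fzd9 had the highest level of all members in the hip control, and Frzb and Wif1 the highest in the deficient-labelled knee library.

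The 4 R-spondins were low in the hip, and in the knee 1 of them rose and 1 fell. Rspo3, an agonist of vessel and bone growth, had 117 and 102 counts in the hip and made up 73.2% and 80.9% of the agonist TPM there, with a log2 ratio of 0.00 (-0.40 to 0.40) that was -0.85 when detrended. Rspo1 had 18 and 10 counts in the hip pair (-0.62, within counting error), and Rspo4 had 2 and 3. Rspo2, which acts in limb and lung development (chromosome 15, 42877439 to 43034706), fell in the hip from 26 to 6 counts (-1.83, or -3.21 when detrended) and rose in the knee from 59 to 358 counts, a log2 ratio of 2.25 (1.86 to 2.68). Rspo4, the R-spondin of nail formation (chromosome 2, 151684708 to 151716605), had 193 counts in the knee control and 10 in its partner, 23.3-fold lower, with a log2 ratio of -4.54 (-5.69 to -3.70). In the knee control Rspo4 had the highest agonist level, 6.18 TPM or 50.8% of the agonist total. In the deficient-labelled knee library Rspo3 led with 3.69 TPM and Rspo2 followed with 2.36 TPM. Rspo3 had 231 and 192 counts in the knee (-0.61) and Rspo1 36 and 58 (0.34). The agonists as a sum had 519 and 618 counts in the knee, a log2 ratio of -0.09 with an interval of -0.26 to 0.08, so the rise of Rspo2 and the fall of Rspo4 left the summed count within its counting error. Per length, the agonist sum was 12.16 TPM in the knee control and lower, at 8.27 TPM, in its partner.

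Among receptors of the hip, 18 passed the filter, with 3 changed and higher and 5 changed and lower, or 44.4%, beside 36.5% of all genes. Their median was 0.15, and it turned to -0.26 when detrended and to -0.19 with upper-quartile scaling. Detrended, 1 of the 18 was changed and higher and 3 changed and lower, or 22.2%, under the 29.6% of all genes. With upper-quartile scaling 1 was higher and 5 lower, beside 38.0% of all genes changed. Fzd9, a Frizzled receptor of bone-forming cells and brain (chromosome 5, 135277792 to 135280084), had 4145 counts in the control and 663 in the deficient-labelled library, a log2 ratio of -2.45 (-2.57 to -2.33). Per length it had 170.5 TPM in the hip control, 47.3% of the receptor total, and 34.0 TPM in its partner, where Fzd4 with 70.3 TPM and Fzd7 with 55.8 TPM stood above it. The detrended ratio of Fzd9 was -1.74, which still passed the rule. Ror2, a receptor for Wnt5a that is needed in growing cartilage, fell from 114 to 26 counts (-1.91), Fzd2 from 430 to 154 (-1.28, or -0.84 and no call when detrended), and Lgr6, an R-spondin receptor, from 219 to 88 (-1.11). Fzd10 had 358 and 150 counts and a ratio of -1.05, or -0.56 when detrended. It shares 30.62% of its exon sequence with the antisense gene Fzd10os, which had 172 and 122 counts, and without stated strand use their reads cannot be told apart.

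The hip receptors that rose were Lrp6, Fzd5 and Lgr4. Lrp6, the coreceptor of beta-catenin signaling, had 790 and 1929 counts and a log2 ratio of 1.49 (1.37 to 1.61). Fzd5 had 124 and 231 counts (1.09), and Lgr4, the broadly expressed R-spondin receptor, 535 and 993 (1.09). Detrended, Lrp6 had 0.77 and Lgr4 0.80, and neither was called, while Fzd5 had 1.04. The other coreceptor, Lrp5, known for its effect on bone mass, had 3931 and 2328 counts in the hip and a ratio of -0.56 (-0.63 to -0.48), so the coreceptors had ratios of opposite sign there. Fzd4, the Frizzled receptor of retinal vessels, had 2910 and 4104 counts (0.69) and Fzd7 2068 and 2790 (0.63). Ryk, a kinase-like receptor that lacks catalytic activity, had 1913 and 2150 counts (0.37), and its detrended ratio was -0.32.

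In the knee all 19 receptors passed the filter, and 7 were changed and higher and 0 changed and lower, or 36.8%, beside 15.8% of all genes, with a median of 0.93. Detrended, 3 of the 19 were changed, or 15.8%, close to the 14.7% of all genes. With upper-quartile scaling 2 of the 19 were changed, under the 15.7% of all genes. Of the 10 Frizzled genes 6 were changed and higher, beside 9.00% of all genes. Beyond counting error 9 were above 0, beside 31.9% of all genes. The median of the 10 was 1.07, beside a median of 0.15 for the 9 other receptors. Fzd9 had 475 and 1257 counts and a log2 ratio of 1.06 (0.91 to 1.22), Fzd4 590 and 1586 (1.09), and Fzd7 439 and 1180 (1.09). Fzd8 had 268 and 713 counts (1.07) and Fzd2 127 and 358 (1.15). These 5 lay within 1.06 and 1.15, close to the threshold of 1, and after detrending Fzd4, Fzd7 and Fzd8 had 0.90, 0.92 and 0.84 and were not called. With upper-quartile scaling Fzd9 was not called either, and 2 of the 10 Frizzled genes, Fzd2 and Fzd10, kept a call. Fzd10 rose from 4 to 40 counts, with a ratio of 2.83 and a wide interval of 1.51 to 4.93. Fzd1 and Fzd6 had ratios of 0.99 and 0.93, Fzd5 0.22 (-0.04 and within counting error when detrended), and Fzd3 -0.07, within counting error.

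Summed over the 10 Frizzled genes, the knee had 2848 and 6870 counts, a log2 ratio of 0.93, and the hip 11001 and 8752 counts, a log2 ratio of -0.13. Lrp5 was the coreceptor that rose in the knee, with 1012 and 2578 counts and a ratio of 1.01 (0.90 to 1.12), or 0.71 when detrended. Lrp6 had 1255 and 2192 counts in the knee (0.46) and Lrp4, a receptor of Sost and of the muscle synapse, 1279 and 2176 (0.43). Lgr6 had 187 and 459 counts (0.95) and Lgr4 531 and 744 (0.15). Ryk, which had the highest receptor level in the knee control at 18.2 TPM, had 3056 and 2672 counts and a ratio of -0.53. Ror2 had 156 and 166 counts (-0.25, interval -0.57 to 0.07, or -0.38 and beyond counting error when detrended), and Ror1 and Lgr5 were below 0 beyond counting error with -0.67 and -0.78. In the deficient-labelled knee library Fzd9 had the highest receptor level, 44.6 TPM, followed by Lrp5 with 21.3 and Fzd4 with 18.8.

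Markers of muscle, fat, the superficial zone and other tissues moved in the same direction as the knee Frizzled genes. Of the muscle markers 20 of 20 were above 0 beyond counting error, beside 31.9% of all genes, with a median of 1.03 and 1.44% and 3.08% of the counts. The adipocyte list had 10 of 10 above and a median of 1.17, and the list of superficial-zone and synovial-lining genes had 7 of 8 above and a median of 1.05, with Prg4 at 10157 and 36604 counts. Neuron and Schwann cell markers had 5 of 7 above and 2 below and a median of 0.75, and endothelial markers 6 of 8 above and 2 below and a median of 0.35. Apart from Nefl, of the neuron list, no gene of these lists was at 0. Their part in the Frizzled ratios was not tested.

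Among the inhibitors of the knee, 12 passed the filter, with 3 changed and higher and 1 changed and lower, or 33.3%, beside 15.8% of all genes, and a median of 0.45. Frzb, a secreted Frizzled-related protein made by chondrocytes (chromosome 2, 80242313 to 80278304), had 626 counts in the control and 5979 in the deficient-labelled library, 7.54-fold higher, with a log2 ratio of 2.92 (2.80 to 3.04). Its share of the inhibitor TPM was 6.27% in the knee control and 26.0% in its partner. Sfrp5, another Frizzled-related inhibitor, rose from 255 to 843 counts (1.38, interval 1.18 to 1.59). Sost, the osteocyte protein sclerostin that blocks Lrp5 and Lrp6 (chromosome 11, 101853284 to 101857847), rose from 423 to 1640 counts, with a ratio of 1.61 (1.46 to 1.77). These 3 were high in the deficient-labelled knee library and kept their calls when detrended, at 2.95, 1.46 and 1.71.

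The bases before the start sites of the members were read for the core letters bound by the Runx partners of Cbfb, TGTGGT, and for those bound by the Tcf and Lef factors of Wnt signaling, CTTTGAT, on both strands (ACCACA and ATCAAAG on the opposite strand). The RefSeq promoter table for GRCm38.p6 held 35 of the 55 members. These have 38 start sites in the table, 2 for Wnt11 and 3 for Wnt5b. In the 250 bases upstream, the Runx core was present at 3 of the 38, those of Dkk1, Ror1 and Sfrp5, or 7.89%, and in 14.0% of 32851 promoters of all genes. The Tcf and Lef core was present at 2, 1 of Wnt5b and 1 of Wnt11, or 5.26%, and in 3.21% of all promoters. The sequences that follow are that of Sfrp5, the one inhibitor among those that rose in the knee whose window holds the Runx core, then that of Sost, which holds neither core, and last that of Wnt11, which was lower in both joints and holds the Tcf and Lef core in reverse at this start site and not at its other. All are written 5′ to 3′ on the strand of the gene, in lower case with the core in capitals. They lie at chr19:42202253-42202502 (minus strand), chr11:101967016-101967265 (minus strand) and chr7:98834862-98835111 (plus strand) of GRCm38.p6.
Sfrp5: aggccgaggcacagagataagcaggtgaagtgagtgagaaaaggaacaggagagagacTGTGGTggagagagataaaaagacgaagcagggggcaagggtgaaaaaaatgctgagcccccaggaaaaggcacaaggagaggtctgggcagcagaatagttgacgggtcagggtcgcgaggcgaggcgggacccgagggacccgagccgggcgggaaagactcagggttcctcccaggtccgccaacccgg
Sost: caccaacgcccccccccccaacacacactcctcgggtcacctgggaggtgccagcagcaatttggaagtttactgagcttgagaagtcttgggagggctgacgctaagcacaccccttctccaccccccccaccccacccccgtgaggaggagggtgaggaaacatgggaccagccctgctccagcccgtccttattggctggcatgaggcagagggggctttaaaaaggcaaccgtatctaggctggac
Wnt11: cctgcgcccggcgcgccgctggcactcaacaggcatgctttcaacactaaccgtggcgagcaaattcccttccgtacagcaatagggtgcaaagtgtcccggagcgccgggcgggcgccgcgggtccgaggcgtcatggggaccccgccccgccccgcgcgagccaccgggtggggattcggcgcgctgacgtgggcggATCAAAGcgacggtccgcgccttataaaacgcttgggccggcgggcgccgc
The Runx core of Sfrp5 began at base -192 from the start site and the reversed core of Wnt11 at base -51. A match says that the letters are there, and its absence that they are not in this window.

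Chondrocyte markers went the other way from these inhibitors in the knee, with 13 of 16 below and 3 above 0 beyond counting error, a median of -1.70 and 0.641% and 0.315% of the counts. Of all knee genes, 29.7% were below and 31.9% above. Beside Sost, the markers of bone-forming cells and osteocytes held 1.21% of the knee control counts and 0.71% of those of its partner, with 3 of 13 above and 8 below 0 beyond counting error and a median of -0.17. Of the osteocyte genes, Dmp1 had 6883 and 3960 counts (-1.14) and Mepe 1375 and 2520 (0.53), and Phex and Omd had ratios of 0.19 and 0.57. The rise of Sost was thus seen beside bone genes of both directions, and their part in it was not tested. Wif1, a Wnt-binding inhibitor, had the highest inhibitor level in both knee libraries, 104 and 164.2 TPM, with 3224 and 5062 counts and a ratio of 0.31. Sfrp4, a regulator of cortical bone, had 1770 and 2666 counts (0.25), and Dkk3, a distant relative of Dkk1, 745 and 1804 (0.94). Dkk1 had 500 and 671 counts in the knee and a ratio of 0.08 with an interval of -0.08 to 0.25, while its detrended ratio was 0.25 (0.08 to 0.42). Notum, the enzyme that strips the lipid from Wnt proteins, was the inhibitor that fell in the knee, from 393 to 145 counts with a ratio of -1.77 (-2.06 to -1.50). Notum shares 48.73% of its exon sequence with antisense genes, of which Notumos had 16 counts and 1 count. Sfrp1, Sfrp2 and Sostdc1 had knee ratios of 0.04, 0.59 and 1.17, of which Sfrp2 alone was beyond its counting error. Detrended, Sostdc1, from 6 and 18 counts, had 1.40 with an interval of 0.09 to 3.10 and was called.

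In the hip, 12 inhibitors passed, with 1 changed and higher and 2 changed and lower, or 25.0%, under the 36.5% of all genes, and a median of -0.64. With upper-quartile scaling 1 of the 12 was changed and higher and 5 were changed and lower, with Sfrp1, Sfrp2 and Sost added. That share was above the 38.0% of all genes under that scaling, and the median was -0.98. Detrended, the changed share was 16.7%, under the 29.6% of all genes. Sfrp4 fell from 360 to 106 counts (-1.56, interval -1.89 to -1.25) and Wif1 from 182 to 77 (-1.04), the latter with -0.75 and no call when detrended. Notum rose from 2 to 19 counts, with a ratio of 3.16 and an interval of 1.39 to 6.59. Of its antisense genes, Myadml2os had 1 count and 8 and Notumos 0 and 2 there, and without stated strand use these reads cannot be told apart from those of Notum. The most abundant inhibitor there was Sfrp5, with 37.3 and 27.4 TPM, from 751 and 444 counts, a ratio of -0.56 that was 0.13 when detrended. Dkk2, which antagonizes Lrp6, had 484 and 712 counts (0.75), and Dkk3 704 and 462 (-0.41). Frzb had 273 and 157 counts (-0.60). Sost had 34 and 16 counts and a ratio of -0.87 with an interval of -1.85 to 0.01, and Dkk1 10 and 3 counts, with -1.39 and an interval of -4.04 to 0.42. Neither interval left out 0, but with upper-quartile scaling Sost had -1.21 and was called lower. Sfrp1 and Sfrp2, relatives of Frzb, had ratios of -0.67 and -0.98, below 0 beyond counting error, and Sostdc1 had 0.09.

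Several marker lists were lower in the deficient-labelled hip library beside the many lower members, and others had a median above 0. Their counts stand beside 33.7% of all hip genes below and 37.3% above 0 beyond counting error. Markers of bone-forming cells held 0.0923% and 0.0222% of the counts, with 8 of 13 below and 2 above 0 beyond counting error, and those of tendon 0.0472% and 0.0117%, with 5 of 6 below and 1 above. Chondrocyte markers held 0.026% and 0.0106%, with 10 of the 15 that passed the filter below and 3 above. Macrophage markers had 6 of 8 below and 2 above and a median of -1.12, those of neurons and Schwann cells 6 of 7 below and 1 above, and those of osteoclasts 3 of 7 below and 2 above. Superficial-zone markers had 4 of 8 above and 3 below and a median of 0.77, and adipocyte markers 6 of 10 above and 3 below and a median of 0.51. Endothelial markers had 3 of 8 above and 3 below. Erythroid markers held 0.589% and 0.222% of the hip counts, against 9.99% and 4.94% for the knee. Of these lists, the neuron gene Nefl was at 0 counts in both libraries. The hip muscle markers had a median of -0.01, with 9 of 20 above and 10 below. The part of these cells in the ratios of the members was not tested.

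**Figure D3:**
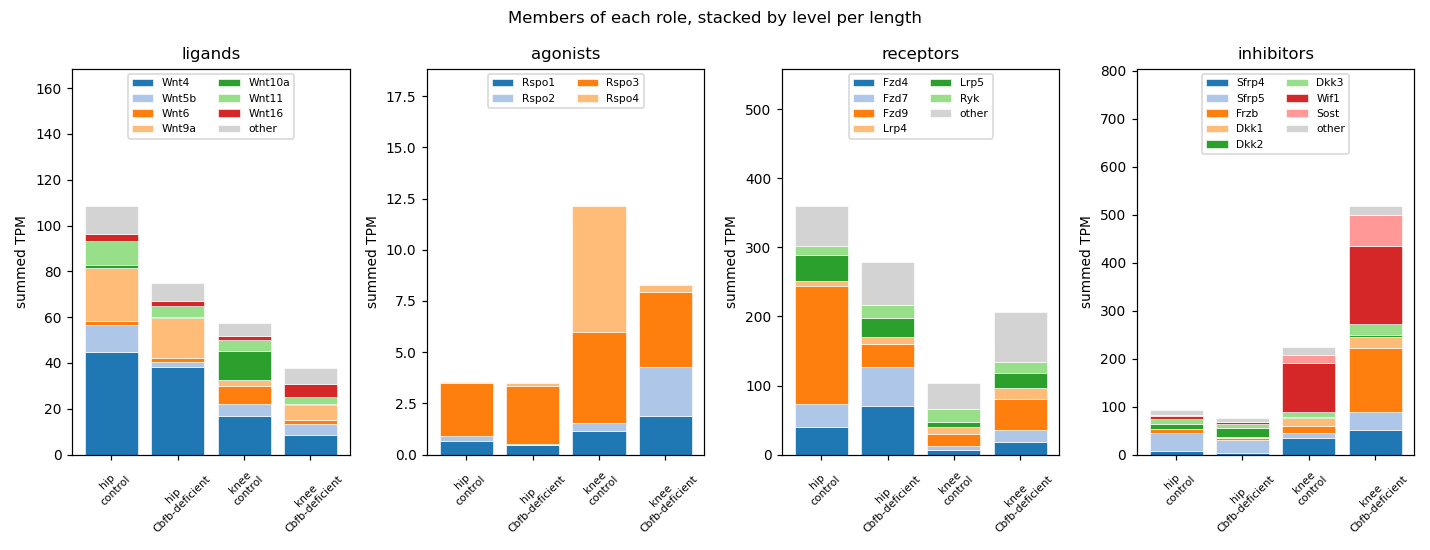
Summed TPM of ligands, agonists, receptors and inhibitors in the 4 libraries, stacked by gene, each panel with its own axis from 0. The ligand stack was 57.3 and 37.9 TPM in the knee pair and the inhibitor stack 224.3 and 519.2 TPM, and in the hip control Fzd9 was the tallest receptor segment.

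Summed over a role, the knee ligands had 3280 counts in the control and 2323 in the deficient-labelled library, a log2 ratio of -0.84 (-0.91 to -0.76). Without Wnt10a the ratio was -0.52, and without Wnt4 and Wnt10a it was -0.16, so these 2 genes carried most of the lower sum. The knee inhibitors had 8487 and 19640 counts and a ratio of 0.87, which was 0.46 without Frzb and 0.35 without Frzb and Sost. The knee receptors had 10511 and 17999 counts (0.44). In the hip, ligands had 5510 and 3078 counts (-0.64), inhibitors 3187 and 2195 (-0.34) and receptors 19426 and 17276 (0.03), the last with 0.32 when Fzd9 was left out. Per unit of ligand TPM, the inhibitor TPM was 0.861 in the hip control, 1.01 in its partner, 3.92 in the knee control and 13.7 in its partner. The knee libraries thus held more inhibitor than ligand transcript per length, most of all the deficient-labelled one, and a sum of transcripts is not a measure of signaling.

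Of the 55 members, 46 had at least 10 counts in both pairs, and the joints were set side by side. In both joints 6 were above 0 beyond counting error (Wnt2b, Fzd4, Fzd5, Fzd7, Lrp4 and Lrp6) and 6 were below 0 (Wnt1, Wnt4, Wnt5b, Wnt7b, Wnt10a and Wnt11). Detrended, 5 were above 0 in both, without Wnt2b and Fzd5 and with Wnt10b (10.9%, beside 14.4% of all genes), and with upper-quartile scaling 4, without Fzd5 and Lrp4 (8.70%, beside 10.7%). The 6 lower in both were all ligands, while detrended ratios put 9 there, with Rspo3, Ror2 and Ryk added (19.6%, beside 2268 of 17434 genes), and upper-quartile scaling 7, with Ror2 added (15.2%, under the 20.5% of all genes). A further 17 were lower in the hip and higher in the knee, of which 3 were ligands, 7 receptors, 1 agonist and 6 inhibitors. That is 37.0% of the 46, beside 10.2% of the 17594 genes with at least 10 counts in both pairs, and 28.3% beside 9.01% when detrended. Ryk and Notum were the 2 with the opposite pattern, or 4.35% beside 10.2%, and Ryk left it when detrended. Of all these genes, 18.1% were above 0 in both joints and 12.9% below 0 in both, beside 6 members each, so the share of members lower in both was close to that of all genes. The remaining 15 were within counting error in 1 or both pairs. Fzd9 showed the contrast at high counts, with 4145 and 663 for the hip pair but 475 and 1257 for the knee pair. The difference between joints was not tested, and the joint, the Cre line, the age, the type of control and the program used for counting cannot be told apart here.

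The genes that act around and after the receptors were taken as 4 lists, whose changed shares stand beside 36.5% of all genes in the hip and 15.8% in the knee. Of 16 genes of Wnt secretion and receptor turnover, 15 passed in the hip, with 1 changed and higher and 3 lower (26.7%, median -0.19), and 16 in the knee, with 3 higher and 2 lower (31.2%, median 0.34). Cthrc1, a secreted protein that binds Wnt and Frizzled proteins, fell in both joints, from 148 to 35 counts in the hip (-1.87) and from 1217 to 455 in the knee (-1.76). Znrf3, the ligase that removes Frizzled receptors, rose in the hip from 104 to 195 counts (1.10), and Gpc6, a glypican, rose in the knee from 87 to 322 (1.54). Of 19 genes of the beta-catenin destruction complex and its nuclear partners, 4 were changed and higher and 2 lower in the hip (31.6%, median 0.09), and 1 higher and 1 lower in the knee (10.5%, median 0.17), both shares under those of all genes. Apc, the scaffold of that complex, had 374 and 1590 counts in the hip (2.28, or 1.34 when detrended), and Tcf7, a nuclear partner of beta-catenin, 118 and 50 (-1.03, or -0.62 when detrended). In the knee Dvl1, which relays the signal from Frizzled, had 1231 and 3220 counts (1.05, or 0.73 when detrended), and Lef1, another nuclear partner, 475 and 291 (-1.05).

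Of 16 Wnt target genes, 14 passed in the hip, with 1 changed and higher and 6 lower (median -0.11), a share above that of all genes. In the knee 15 passed, with 1 higher and 2 lower (median -0.45). This knee share was little above the 15.8% of all genes and rested on few genes, among them Sp5 at 12 and 2 counts. Jag1, a Notch ligand, rose in the hip from 273 to 519 counts (1.12, or 0.90 when detrended), and Ccnd1, the cell cycle regulator cyclin D1, fell from 289 to 90 (-1.48). Nkd1, a feedback inhibitor of the pathway, rose in the knee from 57 to 223 counts (1.62). Of 19 genes of planar cell polarity and noncanonical signaling, 3 were changed and higher and 1 lower in the hip (21.1%, median -0.01), and 1 and 1 in the knee (10.5%, median 0.33), again under the shares of all genes. The kinase Rock2 had 1156 and 3056 counts in the hip, with 1.60 that was 0.33 when detrended, and Ptk7, a coreceptor of this branch, 289 and 89 (-1.50). In the knee Prickle2 had 58 and 195 counts (1.40) and Celsr1 546 and 255 (-1.44), both core genes of planar polarity. Detrended, the hip counts of changed genes were 1 higher and 4 lower of 15 for secretion and turnover. They were 2 and 2 of 19 for the destruction complex and nuclear partners and 0 and 3 of 19 for planar polarity. For the targets they were 2 and 4 of 13, without Sp5, at 20 counts and 0, which has no detrended ratio. These stand beside 29.6% of all hip genes when detrended. In the knee, beside 14.7% of all genes, secretion and turnover had 2 and 1 of 15, without Kremen2 at 14 counts and 0. The destruction complex list had 0 and 1 of 19, the targets 1 and 2 of 15, and planar polarity 1 and 1 of 19.

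**Figure D4:**
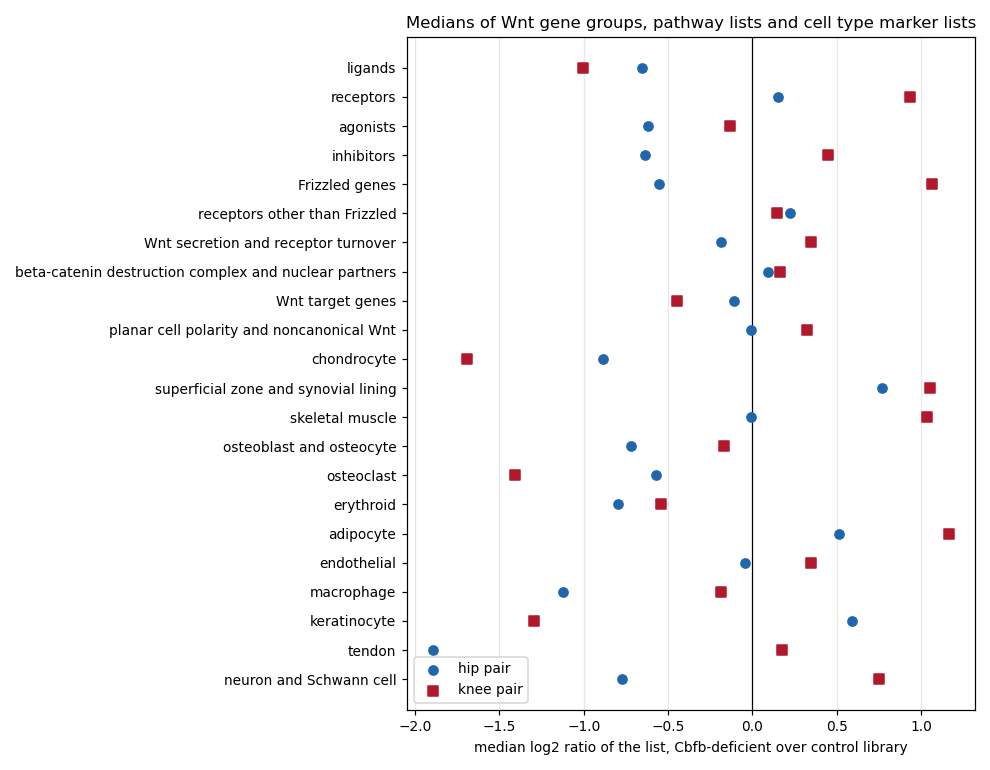
Median log2 ratio of the 4 roles, the Frizzled genes, the other receptors, 4 pathway lists and 12 lists of cell type markers, for the hip pair (blue circles) and the knee pair (red squares). Knee Frizzled genes (1.07) lie near the muscle (1.03), adipocyte (1.17) and superficial-zone (1.05) lists, and knee ligands (-1.003) lie between the keratinocyte list (-1.30) and 0. The knee chondrocyte (-1.70) and osteoclast (-1.41) lists lie lower, and the list of bone-forming cells and osteocytes lies at -0.17. The part of these cells in the medians was not tested.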

How the data were processed

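RNA-seq counts of the 4 libraries were used as deposited: whole-number counts of reads per Ensembl gene, which the authors made without normalization. HTSeq summary lines at the end of the hip counts, 25.8% and 24.6% of the reads listed, were left out. The knee counts come from another, unnamed program and annotation. The paper names GRCm39 and STAR, the submitters' processing notes mm10, STAR 2.0 and FastQC 0.11.3. Strand use in counting is not stated.

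Symbols, positions, exon lengths and GC content came from GENCODE (GRCm39), with 91.8% of the identifiers matched for the hip and 92.6% for the knee. Counts were scaled within each pair by TMM (edgeR 4.0.16, R 4.3.3). A log2 ratio was that of the scaled counts with 0.5 added, deficient-labelled over control, with a 95% Clopper-Pearson interval of the split of the counts, which covers counting error only. A gene was changed when the interval left out 0 and the log2 ratio reached 1 in either direction, provided that both libraries together held at least 10 counts. A 0 was compared against a floor of 3 counts per library (0.078 to 0.0876 CPM). TPM used the exon length. The paired DESeq2 fit that the paper names was not run: within a joint it has no residual degrees of freedom, and over both joints it would take hip and knee, which differ in Cre line, age and control, as replicates. Trends over transcript length and then GC content were removed as medians of 20 bins, in 2 rounds. Steps were tested on simulated counts. Intervals came from scipy 1.17.1 and plots from matplotlib 3.10.9 (Python 3.11.15, pandas 2.3.3, numpy 2.4.6).

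Members named with values were those changed in a joint whose higher library held at least 50 counts, the 3 of each role with the highest TPM in a library, and Wnt2b, Wnt9b, Wnt10b, Sost and Dkk1, which the study names. Members outside that rule, such as Wnt1, Wnt2, Wnt3 and Fzd1, were named after their values were seen. Of each pathway list, the largest rise and fall per joint among changed genes that reached 100 counts in a library were named. The family, the lists and this rule were chosen with earlier results of these data known. The alternatives were library-size, DESeq2 1.42.0 and upper-quartile scaling, TMM without muscle and erythroid genes, 2 added to each count, other count filters, a 1.5-fold threshold and the trend removal. Counts by role, over all genes and over both joints with upper-quartile scaling and with the trend removed, and those of the pathway lists with the trend removed, were added after seeing the data.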

Additional observations from a re-analysis of the deposited data

Results flagged for a closer look

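For 14 members the hip and the knee ratio had opposite signs, each beyond its counting interval, with a size of at least 1 in at least 1 joint. These were 30.4% of the 46 members with at least 10 counts in both pairs, beside 9.09% of 17594 genes. Detrended over length and GC content, 9 of the 14 kept this pattern, or 19.6%, beside 1255 of 17434 genes, and Wnt9a, Sfrp5, Wif1, Lrp5 and Fzd8 left it. With upper-quartile scaling 13 had it, or 28.3%, beside 1766 of 17594 genes, without Wnt9a, Lrp5 and Fzd8 and with Sost and Sfrp2. Each value is the log2 ratio of the deficient-labelled over the control library. The difference between the joints was not tested, since each joint has 1 library per group.

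Receptors made up 6 of the 14. Fzd9 had -2.45 in the hip and 1.06 in the knee, Fzd2 -1.28 and 1.15, and Fzd8 -0.58 and 1.07. Fzd10 had -1.05 and 2.83, the latter from 4 and 40 counts. Detrended, Fzd8 had -0.67 and 0.84. Lrp5 had -0.56 and 1.01, or -0.73 and 0.71 when detrended, and the R-spondin receptor Lgr6 -1.11 and 0.95.

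Of the inhibitors, Frzb had -0.60 in the hip and 2.92 in the knee, Sfrp5 -0.56 and 1.38, Sfrp4 -1.56 and 0.25, and Wif1 -1.04 and 0.31. Sfrp5 had 0.13 in the hip when detrended, and Wif1 had -0.75 and 0.42. Notum went the other way, with 3.16 in the hip, from 2 and 19 counts, and -1.77 in the knee.

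The ligands were Wnt9a, with -0.53 and 1.04, and Wnt16, with -0.66 and 1.44. Detrended, Wnt9a had -0.07 in the hip. The agonist was Rspo2, with -1.83, from 26 and 6 counts, and 2.25.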

How the results depend on the processing

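The 20 changed members of the hip and the 23 of the knee stayed within 1.5 times of these counts under the alternatives run (14 to 27 and 16 to 32). The count of higher members moved more. In the hip it was 5, and 8 with a 1.5-fold threshold, 3 with the length and GC trend removed and 3 with upper-quartile scaling, which also took the median of the members from -0.56 to -0.90. In the knee it was 14, and 9 with the trend removed and 7 with upper-quartile scaling. The cause was not tested, beyond the shift that upper-quartile scaling puts on all ratios. The hip ligand median went from -0.66 to -1.24 with the trend removed, and that of the hip agonists from -0.62 to 0.00 with at least 50 counts over the pair. The hip inhibitors called lower went from 2 to 5 with upper-quartile scaling, and their median from -0.64 to -0.98. The hip receptor median changed sign, from 0.15 to -0.26 with the trend removed and -0.19 with upper-quartile scaling, and that of the knee agonists from -0.13 to 0.05 with library-size scaling. The median of the knee ligands was -0.46 with at least 10 counts in each library and -0.73 with at least 50 over the pair. No called member ratio reversed under these alternatives. Within a joint, no paired analysis was possible because each group has 1 library. A fit blocked by joint over all 4 libraries, which would take hip and knee as replicates with 1 residual degree of freedom, was not run. No replicate could be left out, so animal-to-animal spread is unknown and 1 library decides each value.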
